A study of Mus musculus with 24 samples.

Results

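Molecular chaperone genes are described here across mouse embryonic stem cells (mESC) and the neural progenitor cells (NPC) derived from them, in lines that differ at Htt, the gene for huntingtin. The members were every gene of the deposited expression tables whose symbol belongs to the Hspa, Hspb, Hspd, Hspe, Hsph, Hsp90, Dnaja, Dnajb, Dnajc, Bag1 to Bag6 or Cct2 to Cct8 series, without Hspa5. This gave 79 of the 17953 genes in either table, of which 76 stood in both tables, and Dnajc5b, Dnajc5g and Hspb3 in that of mESC alone. The choice used names and no measured values. Families were assigned from the gene symbol alone, not from function. There were 9 HSP70 genes, 3 HSP110 genes, 4 genes of J-domain class A, 11 of class B and 27 of class C, 6 BAG genes, 3 HSP90 genes, 2 of the mitochondrial chaperonin, 7 CCT genes and 7 with an Hspb symbol, listed as small heat shock protein genes. Both cell types were sequenced in pairs of libraries for each of 6 genotypes, namely WT (wild type), KO (Htt knockout) and 4 heterozygous lines with an Htt allele of 20, 50, 92 or 111 CAG repeats knocked in (Q20, Q50, Q92 and Q111). The titles give the third length as 92 repeats and the culture notes as 89. The knock-in mESC belong to an allelic series and were grown with LIF on irradiated mouse embryo fibroblast feeders, and NPC were made by adherent differentiation and kept with FGF and EGF. Each repeat length stood for a single named line in each cell type, so repeat length and any other difference between the lines cannot be told apart.

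Chaperones bind unfolded or partly folded proteins. HSP70 proteins work in a cycle in which J-domain proteins deliver clients and start ATP hydrolysis, and HSP110 and BAG proteins release the nucleotide. HSP90 acts on later folding steps. The chaperonins HSP60 with HSP10 (in mitochondria) and CCT (in the cytosol) enclose whole proteins in a chamber. Small heat shock proteins hold clients without ATP. Expanded polyglutamine, the product of the CAG repeat, misfolds and aggregates, and HSP70, its J-domain partners and CCT are known to limit that aggregation. Many of these genes are induced by heat shock factor 1 through heat shock elements, and those of the endoplasmic reticulum (ER) by the unfolded protein response.

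Values were normalised read counts (CPM) as deposited. Depth ran from 58546211 to 81502284 counted reads per mESC library and from 48525333 to 118038952 per NPC library. The study's design text calls the 2 libraries of a group biological samples, and p-values measure only the spread between such libraries. The targeted gene, Htt, stood in NPC at 137 and 177 in WT, 100.1 and 94.9 in KO, 157 and 155 in Q20, 182 and 173 in Q50, 184 and 168 in Q92 and 137 and 150.2 in Q111. Both KO libraries were below both WT libraries (log2 change -0.67, SE 0.14, limma adjusted p 0.0673, not called). In mESC it stood at 124 and 113 in WT and 139 and 68.5 in KO, so the library labelled KO 1 lay above both WT libraries and the mESC labels KO are used below as labels only. Which part of Htt is deleted is not given in the sources used here. Pou5f1, a defining pluripotency gene, was at 279.7 CPM or above in every mESC library. The 10 neural progenitor markers summed in NPC to 7561 and 6726 CPM in WT, 8096 and 5636 in KO, 4044 and 4223 in Q20, 9248 and 9411 in Q50, 6501 and 6707 in Q92 and 5438 and 6202 in Q111. Both Q20 libraries were thus the lowest, with 3 markers higher and 7 lower than in WT. Of 7 neuron markers, 6 were higher and 1 lower in Q20 than in WT, and 1 was higher and 6 lower in Q50 than in Q20. Markers of other cells moved with the NPC lines. Pou5f1 stood at 90.1 and 87.4 in the Q20 NPC and at no more than 0.405 in the other 10 NPC libraries, and Nanog at 12.996 and 13.7 in Q20 and at no more than 1.63 elsewhere. The other pluripotency markers did not all move this way. Of the 5 tested in NPC from a list of 10, 3 were higher and 2 lower in Q20 than in WT. In Q92 against Q20, 3 were again higher and 2 lower. The 6 astrocyte markers summed to 876 and 265 in WT, 325 and 70.5 in KO, 1366 and 1215 in Q20, 856 and 331 in Q50, 24.01 and 234 in Q92 and 185 and 178 in Q111 (CPM). The 9 fibroblast markers summed to 38.7 and 45.4 in WT, 30.5 and 40.5 in KO, 319 and 257 in Q20, 897 and 919.9 in Q50, 7.05 and 8.26 in Q92 and 3.66 and 3.81 in Q111. Their part in the chaperone results was not tested. In bulk samples fewer cells of a type and less RNA per cell cannot be told apart.

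Together the chaperone genes made up 2.82% to 3.46% of the summed CPM in the mESC libraries and 1.38% to 2.07% in the NPC libraries. In NPC the share was 1.52% and 1.59% in Q20, 1.46% and 1.58% in Q50, 1.87% and 1.8% in Q92 and 2.01% and 2.07% in Q111, against 1.38% and 1.71% in WT and 1.53% and 1.7% in KO. The 4 libraries with the longest repeats thus held the 4 highest NPC shares, and the 4 with 20 or 50 repeats lay within the WT range. In mESC the knock-in shares followed no such order: Q20 had 3.46% and 3.28%, Q50 2.82% and 3.26%, Q92 3.04% and 3.18% and Q111 3.36% and 3.43%.

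To compare genes, levels were divided by exon length in kb, taken over all annotated transcripts of a gene. The order among genes depends on that length, for example 2557 bases for Cct2 and 6370 for Cct3. By this measure a cytosolic HSP90 gene was highest, and Hspa8 was among the 5 highest, in both cell types. In mESC the 5 highest means over the 12 libraries were Hsp90aa1 at 1797 CPM per kb, Hsp90ab1 at 1393, Hspa8 at 1034, Hspd1 at 579 and Cct2 at 467. In NPC they were Hsp90ab1 at 861, Hspa8 at 565, Cct2 at 344, Hspd1 at 322 and Cct5 at 305. The 2 tables were scaled separately, so levels were not tested between cell types, but ratios within a library carry over. Per kb, Hsp90aa1, the heat-inducible cytosolic HSP90, stood at 0.93 to 2.202 times Hsp90ab1, its constitutive counterpart, in the mESC libraries and at 0.14 to 0.34 times in those of NPC, with no overlap. The ratio of Hspa8 to Hsp90ab1 overlapped, at 0.53 to 1.09 in mESC and 0.45 to 0.755 in NPC. At the low end, 4 members in mESC and 7 in NPC averaged under 1 CPM; among the latter Hspb1, a stress-inducible small heat shock protein, ranged from 0.123 to 1.21 CPM in NPC and from 24.4 to 93.8 in mESC.

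Hspa1a, the stress-inducible HSP70, is a gene of a single exon with a near-identical neighbour, Hspa1b, and its values are unreliable where it is listed at 0. In mESC it stood at 5.14 and 8.48 in WT, 3.24 and 7.16 in KO, 0 and 0 in Q20, 0 and 8.18 in Q50, 0 and 0 in Q92 and 16.002 and 6.94 in Q111. In NPC it stood at 1.63 and 1.77 in WT, 0 and 2.04 in KO, 0 and 0 in Q20, 3.27 and 2.904 in Q50, 0 and 0 in Q92 and 1.69 and 1.13 in Q111. Both Q20 and both Q92 libraries were thus listed at 0 in both cell types, and no fold is given against them. No entry in either cell type carried the symbol Hspa1b, so that gene was not analysed.

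The clearest differences in NPC lay between the longest and the shortest repeat. In Q111 against Q20, 28 of the 71 members tested were called by limma at an adjusted p under 0.05, 23 higher and 5 lower, beside 28.3% of all 13206 genes called, 12.2% higher and 16.1% lower. The median log2 change was 0.45 over the members and 0.03 over all genes. Every HSP110 and mitochondrial chaperonin gene was called higher, as were 3 of 9 HSP70 genes, 3 of 4 class A, 2 of 9 tested class B and 8 of 25 tested class C J-domain genes, 1 of 3 HSP90 and 1 of 6 tested CCT genes. The 5 called lower were Hspa2, Hspa12a, Hspb1, Hspb8 and Dnajc22, 2 HSP70 relatives, 2 small heat shock proteins and a class C gene. Among 12 tested members of a list of heat-inducible genes, 6 were called higher and 2 lower. The 2 group means rested on 4 libraries, and the spread was estimated over all 12 NPC libraries. Fewer members were called when any of the 4 was left out. Dnajb1, Dnajb11, Dnajc3, Dnajc22, Hsp90b1, Hspa2, Hspa8 and Hsph1 were called under all 10 alternatives, without counting WT as the reference.

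**Figure D1:**
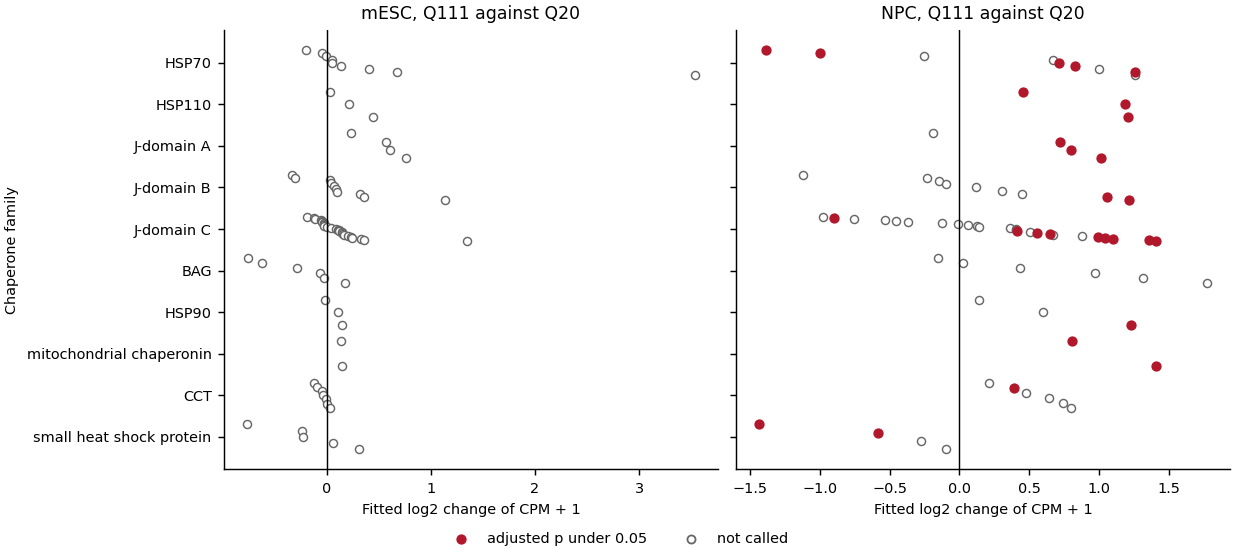
Fitted log2 change of CPM + 1 (horizontal axis) of each tested chaperone gene in Q111 against Q20, by family (vertical axis), in mESC (left) and NPC (right); filled points have a limma adjusted p under 0.05 and open points do not. All 28 called genes are in the NPC panel, 23 of them to the right of 0.

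Over all 4 knock-in lengths in NPC, the slope of log2(CPM + 1) on repeat number, given as the change over the 91 repeats between 20 and 111, was called for 26 of 71 members, 23 rising and 3 falling, beside 22% of all genes, 12% rising and 10.1% falling. The median slope was 0.43 over the members and 0.04 over all genes. Without the Q20 line, 14 members were called beside 14.2% of all genes, and without the Q111 line 16 beside 17.4%. With a single mean value per line, which treats the 4 lines as 4 observations, no member was called (26 with both libraries as separate observations). Leaving out 1 library left 11 to 24 called, 11 and 13 without the first or the second Q20 library and 15 and 13 without those of Q111. The F test for any difference among the 4 lines called 31 of 71 members beside 41% of all genes, close to the background. Its smallest adjusted p-values belonged to Dnajc22 (limma adjusted p 0.000678), Cct4 (0.00068) and Hsph1 (0.000781). This test took its spread from all 12 NPC libraries, WT and KO included, and the slope from the 8 knock-in libraries alone. Over all genes the median absolute log2 difference between replicates was 0.44 in WT and 0.33 in KO. In the knock-in lines it was 0.11 to 0.17. A member that the F test did not call is therefore not shown to be alike in the 4 lines.

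**Figure D2:**
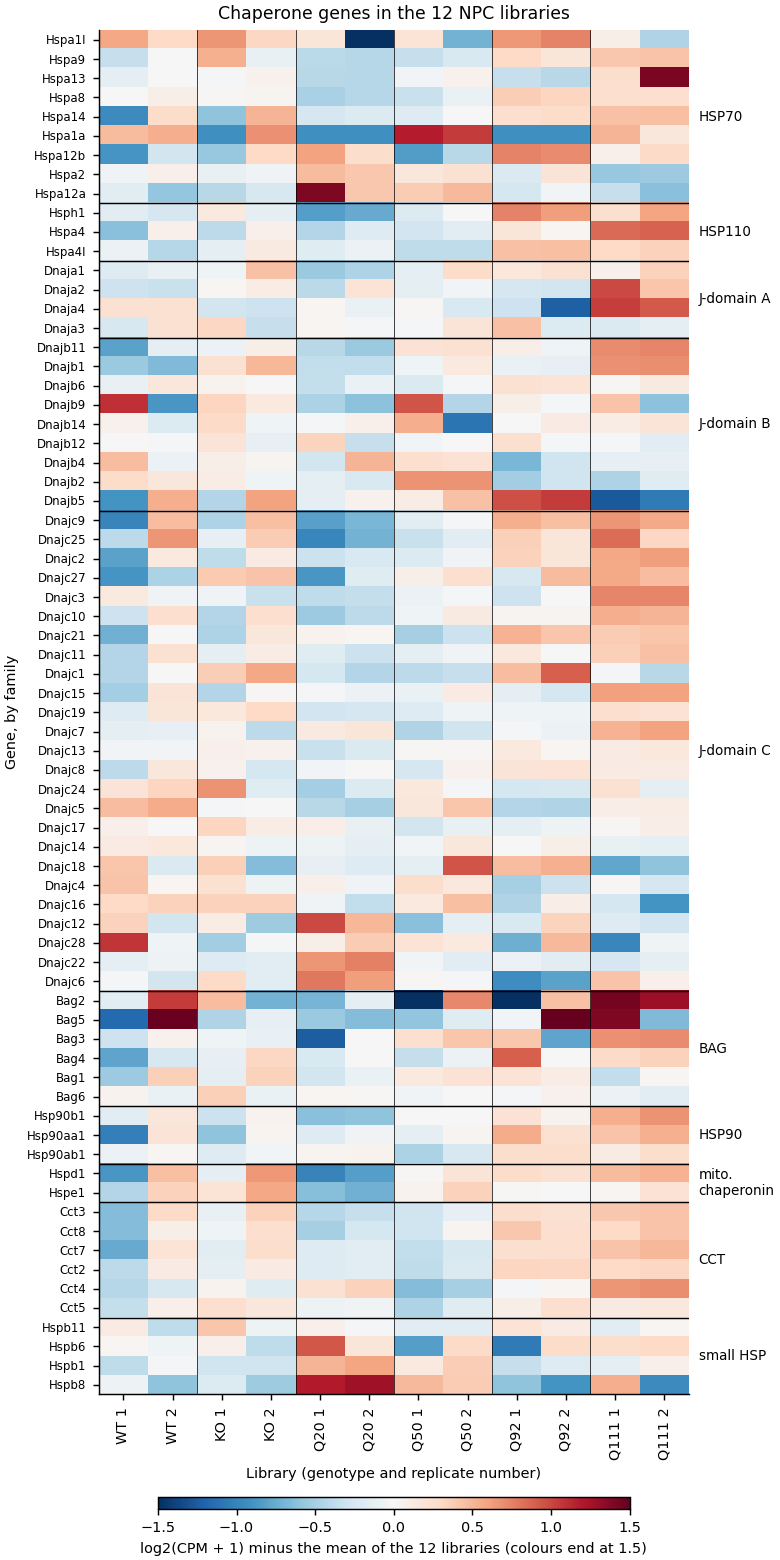
log2(CPM + 1) of the 71 tested chaperone genes in the 12 NPC libraries (columns), each gene (row) centred on its mean over the libraries and ordered by family and then by repeat-length slope; red is above and blue below that mean, with colours ending at 1.5. The Q111 columns are mostly red and the Q20 columns mostly blue, while Hspb8, Hspb1 and Hspa12a are red in Q20.

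Among the HSP70 genes, Hspa8 (ENSMUSG00000015656, chromosome 9, 40800984 to 40810087, plus strand, 4 exons in its longest transcript; GENCODE M21 on GRCm38 here and below), the constitutive cytosolic HSP70, stood in NPC at 2390.1 and 2529.6 in WT, 2411 and 2451 in KO, 1709 and 1775 in Q20, 1897 and 2220.3 in Q50, 3093 and 2992 in Q92 and 2849 and 2854 in Q111 CPM. Q20 was the lowest group, Q50 lay between it and WT, and all Q92 and Q111 libraries were above every other library. In Q20 it averaged 1742 ± 46.7 (SD, n = 2). The Q111 average, 2852 ± 3.32 (SD, n = 2), was higher (log2 change 0.71, SE 0.12, limma adjusted p 0.00406). Hspa9, the mitochondrial HSP70 (mortalin), stood at 649 and 822 in WT, 1193 and 759 in KO, 622 and 609.9 in Q20, 646 and 703 in Q50, 1015 and 933 in Q92 and 1085 and 1109 in Q111. Its knock-in libraries rose with length without overlap between the groups (slope 0.88, SE 0.13, limma adjusted p 0.00376), but the WT and KO libraries spread from 649 to 1193. Hspa14, which works with the J protein Dnajc2 at the ribosome, had a slope of 0.69 (limma adjusted p 0.00522), and Dnajc2 itself one of 0.86 (limma adjusted p 0.00427). Their values in Q20 and Q111 were 77.7 and 80.3 against 126 and 127 for Hspa14, and 60.2 and 64.04 against 113 and 117 for Dnajc2. The F test over the 4 lines called neither (limma adjusted p 0.466 and 0.106). Hspa13, an HSP70 of the ER, was called in Q111 (log2 change 1.26, SE 0.31, limma adjusted p 0.0187), yet its Q111 libraries differed from each other, at 69.2 and 155, against 42.8 and 42.5 in Q20. Hspa12a, a distant HSP70 relative, and Hspa2, best known from the testis, fell. Hspa12a stood at 2.102 and 1.34 in WT, 1.62 and 1.96 in KO, 8.23 and 3.63 in Q20, 3.56 and 3.904 in Q50, 1.899 and 2.39 in Q92 and 1.75 and 1.26 in Q111 CPM. The 4 Q20 and Q50 libraries lay above the other 8 (Q111 against Q20 log2 change -1.39, SE 0.31, limma adjusted p 0.0128). Hspa2 stood at 23.6 and 22.3 in Q20 and 10.9 and 11.1 in Q111 (log2 change -0.997, SE 0.18, limma adjusted p 0.00537).

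**Figure D3:**
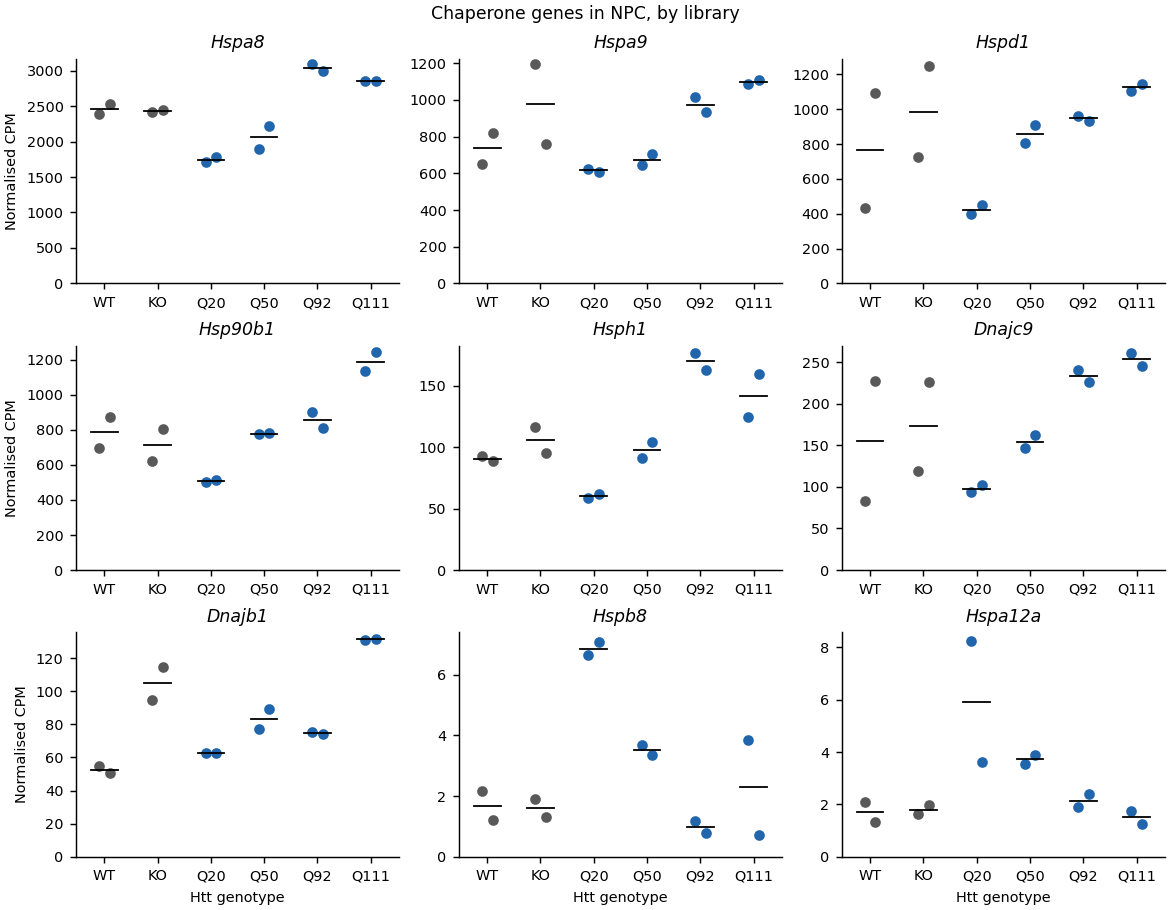
Normalised CPM (vertical axis, from 0) of 9 chaperone genes in the NPC libraries, by Htt genotype (horizontal axis); each point is a library, grey for WT and KO and blue for the knock-in lines, and each bar is the mean of 2 libraries. Hspa8, Hspd1, Hsp90b1, Hsph1 and Dnajc9 are lowest in Q20 among the knock-in lines, and the mean of Hspb8 and of Hspa12a is highest there.

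The HSP110 proteins release the nucleotide from HSP70. Hsph1 (ENSMUSG00000029657, chromosome 5, 149614287 to 149636376, minus strand, 12 exons in its longest transcript), the heat-inducible one, stood in NPC at 93.2 and 88.6 in WT, 117 and 95.7 in KO, 58.9 and 61.8 in Q20, 91.4 and 105 in Q50, 177 and 163 in Q92 and 124 and 159.6 in Q111 CPM. All Q92 and Q111 libraries were above all others, and both Q20 libraries were below all others. It rose in Q92 against Q20 (log2 change 1.48, SE 0.16, limma adjusted p 0.000315) and in Q111 against Q20 (log2 change 1.21, SE 0.16, limma adjusted p 0.00106). Hspa4 stood at 478 and 564 in Q20, 528 and 579.6 in Q50, 737 and 659 in Q92 and 1169.7 and 1195 in Q111, where it was higher than in any other NPC library (log2 change 1.18, SE 0.24, limma adjusted p 0.00864). Hspa4l moved less: its slope was 0.68 (limma adjusted p 0.0472), and it was highest in Q92, at 141 and 142, not in Q111, at 128 and 133.

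Of the mitochondrial chaperonin pair, Hspd1 (ENSMUSG00000025980, chromosome 1, 55077835 to 55088243, minus strand, 12 exons in its longest transcript) encodes HSP60 and Hspe1 (chromosome 1, 55088132 to 55091307, plus strand) its lid HSP10; their annotated ends overlap head to head. Hspd1 stood in NPC at 435 and 1091 in WT, 725 and 1245 in KO, 397 and 449.6 in Q20, 804 and 912 in Q50, 963 and 935 in Q92 and 1107 and 1145 in Q111 CPM. Hspe1 stood at 123 and 213 in WT, 192 and 251 in KO, 107 and 101 in Q20, 173 and 213 in Q50, 168 and 167 in Q92 and 171 and 194 in Q111. Within the knock-in lines Q20 had the lowest libraries of both genes, but WT replicate 1 was close to Q20, at 435 for Hspd1, while WT replicate 2 stood at 1091. The change in Q111 against Q20 was 1.41 for Hspd1 (SE 0.39, limma adjusted p 0.0308) and 0.81 for Hspe1 (SE 0.25, limma adjusted p 0.0442). Hspe1 was already higher in Q50 (log2 change 0.88, SE 0.25, limma adjusted p 0.0419) and on average no higher in Q92 and Q111 than in Q50. Since both genes share a start region and the strand used in counting is not given, reads of the overlap cannot be assigned with certainty.

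The promoters of these genes were searched for the letters of a heat shock element, 3 alternating units GAANNTTCNNGAA on either strand, in the RefSeq windows of 300 bases (250 before to 50 after each start, GRCm38.p6). Of the 79 members, 64 had an entry, with 84 windows in all, and 6 of these windows (7.14%) held the letters, against 0.603% of all 32851 windows. They belonged to Hspd1, Hspe1, Hsph1 and Dnajb6. The stretches are shown as the members' matches to these letters, and nothing about the calls is read from them. Capitals mark the matched letters. Hspd1 and Hspe1 share 1 stretch with 2 overlapping matches, printed on each gene's strand. Starts are those of the RefSeq windows, and GENCODE transcripts can begin further upstream.
Hspd1, chr1:55088053-55088082 minus strand, match from base 144 before the RefSeq start, in exon 1 of 1 GENCODE transcript: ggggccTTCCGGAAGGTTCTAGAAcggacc
Hspe1, chr1:55088053-55088082 plus strand, match from base 89 before the RefSeq start, in no exon of the gene: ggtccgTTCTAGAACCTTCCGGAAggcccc
Hsph1, chr5:149636280-149636308 minus strand, match from base 16 after the RefSeq start, in exon 1 of 4 GENCODE transcripts: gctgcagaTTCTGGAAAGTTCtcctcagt
Dnajb6, chr5:29735844-29735872 plus strand, match from base 46 before the RefSeq start, in exon 1 of 1 GENCODE transcript: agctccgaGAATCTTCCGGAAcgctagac
Dnajb6, a J protein known to suppress polyglutamine aggregation, stood in NPC at 55.8 and 67.95 in WT, 62.4 and 60.2 in KO, 46.7 and 55.8 in Q20, 51.7 and 58.9 in Q50, 70.5 and 69.7 in Q92 and 60.8 and 65.96 in Q111 CPM. Its change in Q111 against Q20 did not pass the test (log2 change 0.31, SE 0.15, limma adjusted p 0.158). A match of letters is a description of the window and not a measured binding site.

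J-domain genes moved in several compartments. Dnajb1 (ENSMUSG00000005483, chromosome 8, 83608193 to 83612653, plus strand, 3 exons in its longest transcript), the heat-inducible cytosolic partner of HSP70, stood in NPC at 54.6 and 50.8 in WT, 94.8 and 115 in KO, 62.6 and 62.5 in Q20, 77.2 and 89.6 in Q50, 75.6 and 74.2 in Q92 and 131 and 132 in Q111 CPM. Both Q111 libraries were above all others, and Q92 was no higher than Q50 (Q111 against Q20 log2 change 1.06, SE 0.13, limma adjusted p 0.000852). Dnaja1, a cytosolic class A partner, stood at 161 and 172 in Q20, 215 and 287 in Q50, 266 and 279.7 in Q92 and 251 and 303 in Q111, and was called in Q92 (limma adjusted p 0.0311) and Q111 (0.028) against Q20. Dnajb2, a J protein that links clients to ubiquitin and is enriched in neurons, was high in Q50 alone among the knock-in lines: 17.6 and 16.3 in WT, 15.5 and 13.6 in KO, 13.02 and 12.1 in Q20, 23.5 and 23.6 in Q50, 9.74 and 11.5 in Q92 and 10.1 and 12.5 in Q111 (Q50 against Q20 log2 change 0.86, SE 0.18, limma adjusted p 0.0124). Dnajc9 (ENSMUSG00000021811, chromosome 14, 20384638 to 20388910, minus strand, 5 exons in its longest transcript), a J protein that also handles histones H3 and H4, had the smallest p of any member for the slope. It stood at 82.6 and 227 in WT, 119.6 and 226 in KO, 93.7 and 102 in Q20, 147 and 162 in Q50, 241 and 227 in Q92 and 261 and 246 in Q111 CPM (slope 1.37, SE 0.13, limma adjusted p 0.000888). The F test over the 4 lines did not call it (limma adjusted p 0.0884). The 4 knock-in groups did not overlap and were higher at each longer length, whereas WT and KO each had 1 low and 1 high library. Dnajc25 had a similar slope, 1.37 (limma adjusted p 0.00683), from 4.001 and 5.07 in Q20 to 16.6 and 11.2 in Q111. Dnajc11, a mitochondrial outer membrane J protein, and Dnajc13, which acts in endosome sorting, had smaller slopes of 0.59 and 0.38 (limma adjusted p 0.015 and 0.0476). Dnajc22, a barely detected class C gene, was at 1.03 and 1.18 CPM in Q20 and at most 0.251 in the other 10 libraries. Its pairwise calls all set Q20 against another line, and the F test over the 4 lines called it too.

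Some chaperones of the ER were among the members called higher in Q111. The grouping was made after their values were seen, and other ER stress genes were not examined. Hsp90b1 (ENSMUSG00000020048, chromosome 10, 86690209 to 86705509, minus strand, 13 exons in its longest transcript), the HSP90 of the ER (GRP94), stood in NPC at 696 and 873 in WT, 619 and 806 in KO, 501 and 512 in Q20, 775 and 779.7 in Q50, 904 and 809 in Q92 and 1135 and 1242 in Q111 CPM. The Q111 libraries were the highest and the Q20 libraries the lowest of the 12 (Q111 against Q20 log2 change 1.23, SE 0.16, limma adjusted p 0.00106). Dnajb11, a J protein of the ER lumen, stood at 77.9 and 70.7 in Q20 and 172 and 175 in Q111 (log2 change 1.21, SE 0.20, limma adjusted p 0.00332). Dnajc3, an ER J protein first described as an inhibitor of a stress kinase, stood at 95.01 and 96.9 against 207 and 208 (log2 change 1.103, SE 0.15, limma adjusted p 0.00111). Dnajc10, an ER disulfide reductase, stood at 142 and 159.7 against 305 and 297 (log2 change 0.99, SE 0.25, limma adjusted p 0.0197). Dnajb9, another ER J protein, did not pass the test, with values that differed between replicates as much as between lines (8.42 and 7.52 in Q20, 24.1 and 8.62 in Q50 and 16.5 and 7.56 in Q111). Dnajc1, of the ER membrane, was high in Q92 instead, at 62.4 and 84.6 against 37.3 and 32.7 in Q20 (log2 change 1.03, SE 0.22, limma adjusted p 0.0115).

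The cytosolic HSP90 genes changed less. Hsp90aa1 stood in NPC at 440.4 and 1029 in WT, 589 and 921 in KO, 788 and 867 in Q20, 818 and 922 in Q50, 1323 and 1050.2 in Q92 and 1206 and 1299 in Q111 CPM. It had a slope of 0.66 (SE 0.16, limma adjusted p 0.0228), but in Q111 against Q20 it did not pass the test (limma adjusted p 0.244). Its WT libraries differed by more than 2 times. Hsp90ab1 stood at 2413 and 2605 in WT, 2228 and 2479 in KO, 2636 and 2652 in Q20, 1836 and 2172 in Q50, 3072 and 3074 in Q92 and 2778 and 3057 in Q111. Q50 was its lowest group. Neither its slope (0.33, limma adjusted p 0.368) nor Q111 against Q20 (limma adjusted p 0.453) was called, although the F test over the 4 lines called it (limma adjusted p 0.0225).

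The CCT chaperonin is a ring of 8 different subunits that folds actin and tubulin. In NPC, Cct2, Cct3, Cct7 and Cct8 had called slopes, of 0.62, 0.83, 0.72 and 0.80. The F test over the 4 lines called Cct2 (limma adjusted p 0.0367) but not Cct3 (0.105), Cct7 (0.126) or Cct8 (0.0807), and none of the 4 was called in Q111 against Q20. Cct3 (ENSMUSG00000001416, chromosome 3, 88297116 to 88321767, plus strand, 12 exons in its longest transcript) stood at 376 and 718 in WT, 546 and 747 in KO, 438 and 462 in Q20, 476 and 539 in Q50, 706 and 690.3 in Q92 and 777 and 789.6 in Q111 CPM (limma adjusted p 0.00324). Q20 and Q50 were low and Q92 and Q111 high, while WT replicate 1 was the lowest library of all. Cct4 took a course of its own: 445 and 509 in WT, 621 and 530.1 in KO, 703 and 766 in Q20, 383 and 424 in Q50, 593 and 614 in Q92 and 948 and 979 in Q111. It was higher in Q20 than in WT (log2 change 0.62, SE 0.13, limma adjusted p 0.0122), fell in Q50 against Q20 (log2 change -0.86, SE 0.13, limma adjusted p 0.00201), and was highest in Q111. Cct5, at 793 and 803 in Q20 and 917 and 933 in Q111, was not called in any NPC comparison. Cct6b stayed at or under 1.21 CPM in NPC and was not tested, and no entry in either cell type carried the symbol Cct6a. Tcp1, the subunit outside the naming rule, had a called slope (0.85, SE 0.13, limma adjusted p 0.00417), with 567 and 572 in Q20 and 972 and 1009 in Q111. Summed over the 7 CCT genes, the levels were 2761 and 4186 in WT, 3885 and 4381 in KO, 3506 and 3689 in Q20, 2936 and 3402 in Q50, 4549 and 4585 in Q92 and 5029.9 and 5186 in Q111.

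**Figure D4:**
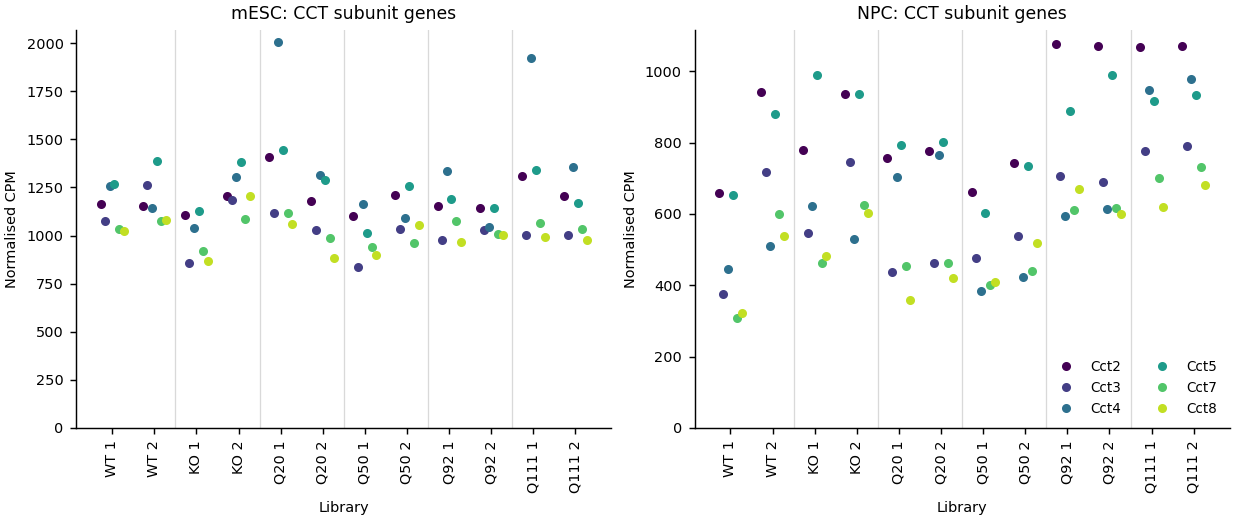
Normalised CPM (vertical axis, from 0, scaled separately for each cell type) of 6 CCT subunit genes in each library (horizontal axis), mESC left and NPC right. In NPC the Q92 and Q111 libraries lie above those of Q20 and Q50 for Cct2, Cct3, Cct7 and Cct8, and Cct4 is lowest in Q50 and highest in Q111; in mESC no such order is seen.

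2 of the 4 tested genes with an Hspb symbol were called lower in Q111 than in Q20. Hspb8 (ENSMUSG00000041548, chromosome 5, 116408491 to 116422864, minus strand, 3 exons in its longest transcript), which acts with Bag3 in the autophagy of misfolded proteins, stood in NPC at 2.15 and 1.203 in WT, 1.902 and 1.297 in KO, 6.63 and 7.08 in Q20, 3.67 and 3.34 in Q50, 1.19 and 0.797 in Q92 and 3.86 and 0.723 in Q111 CPM. Both Q20 libraries were above all others, and the Q111 libraries disagreed with each other. It was higher in Q20 than in WT (log2 change 1.57, SE 0.42, limma adjusted p 0.0418) and lower in Q92 than in Q20 (log2 change -1.99, SE 0.42, limma adjusted p 0.0108), and edgeR on the reads recovered from the values did not call it in Q20 against WT (adjusted p 0.105). Hspb1 stood at 1.08 and 1.21 in Q20, 0.149 and 0.281 in Q92 and 0.325 and 0.539 in Q111, all near the limit of 1 CPM used as a filter. The other tested genes with an Hspb symbol, Hspb6 and Hspb11, were not called in any NPC comparison. Hspb11 was placed in this family by its symbol and not by a known chaperone function. Q20 and Q50, the lines with the highest means of Hspb8, Hspb1 and Hspa12a, also had the highest fibroblast marker sums, 257 to 919.9 CPM against 3.66 to 45.4 in the other 8 libraries, and the part of these cells in the values was not tested.

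No BAG gene was called in any NPC comparison. Bag3 ranged from 8.55 to 35.8 CPM in NPC, with 8.55 and 21.4 in Q20 and 35.05 and 35.8 in Q111. Bag6, which guards newly made membrane proteins, ranged from 159 to 229.9 CPM, the highest library at 1.45 times the lowest. Replicates of Bag2 and Bag5 differed by more than 3 times in 2 and 3 NPC groups respectively, for example 8.62 and 59.1 for Bag5 in WT and 4.54 and 31.6 for Bag2 in Q50.

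Q20 NPC was the reference of the comparisons above. Set against WT NPC, it had 10 of 71 members called (14.1%), 6 higher and 4 lower. This was close to the 14.5% of all genes, 9.97% higher and 4.57% lower. Hspb8, Hspa12a, Cct4, Hspb1, Dnajc6 and Dnajc22 were higher in Q20, and Hspa8, Hsp90b1, Hsph1 and Dnajc5, the cysteine string protein of synaptic vesicles, were lower. For Hspa8 the change was -0.50 (SE 0.12, limma adjusted p 0.0282), for Hsp90b1 -0.62 (limma adjusted p 0.0368), for Hsph1 -0.58 (limma adjusted p 0.0443) and for Dnajc5 -0.97 (limma adjusted p 0.000863). Dnajc5 stood at 134 and 144 in WT, 95.5 and 97.3 in KO, 72.8 and 68.3 in Q20, 109.8 and 130.2 in Q50, 71.4 and 70.6 in Q92 and 104 and 105 in Q111 CPM. It was low in Q20 and Q92 alike. Of these, only Dnajc5 and Dnajc22 were called under 9 of 10 alternatives, and without WT replicate 1 the count was 14, without WT replicate 2 it was 5, and without either Q20 library 3. Set against WT in place of Q20, 1 member was called for Q50 (beside 6.62% of all genes), 5 for Q92 (beside 8.66%) and 13 for Q111 (beside 16.6%). The Q111 count was close to the all-gene share. An all-gene share of higher calls against WT is not given here, so the direction of these calls is not read as a result about the members. Those called higher in Q111 than in WT were Dnajb1, Cct4, Dnajb11, Hspa4, Dnajc7, Dnajc3, Dnaja2, Hspa4l, Dnajc27, Hsph1 and Hsp90b1. Hspa8, Hspa9, Hspd1, Hspe1 and Dnajc9 were not among them.

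The intermediate lengths shared the Q20 libraries with the comparison above, so only each one's own values are given. Q50 NPC against Q20 had 11 members called, 7 higher and 4 lower, beside 18.8% of all genes, 8.05% higher and 10.7% lower. The largest rises with a mean of at least 5 CPM and groups apart were those of Hspe1, Dnajb2, Dnajc5 (0.75), Dnajb11 (0.71) and Hsph1 (0.69), and the largest falls by the same rule those of Cct4 and Dnajc7 (-0.53), which bridges HSP70 and HSP90. Hspa1a was also called, against Q20 libraries listed at 0. Cct4, Dnajc5 and Dnajc22 were called under all 10 alternatives. Leaving out any of the 4 libraries left 3 or 4 called, and a fit on those 4 alone called 17, beside 29.7% of all genes in that fit. Q92 NPC against Q20 had 13 called, 8 higher and 5 lower, beside 25.8% of all genes, 9.88% higher and 15.9% lower. Hsph1, Dnajc1, Hspa8 (0.80), Hsp90b1 (0.75) and Dnaja1 (0.71) led the rises, and Hspb8 and Hspa12a (-1.06) the falls. Dnajc6, the clathrin uncoating factor auxilin, also fell, from 2.89 and 2.48 in Q20 to 0.182 and 0.297 in Q92. In both comparisons the share of members called was below that of all genes. Leaving out any library of the Q92 comparison left 6 or 7 called, and a fit on the 4 libraries alone called 34, beside 46.6% of all genes in that fit.

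In NPC KO against WT, 1 of 71 members (1.41%) was called, close to the 1.42% of all genes. Dnajb1 rose from 54.6 and 50.8 CPM in WT to 94.8 and 115 in KO (log2 change 0.97, SE 0.13, limma adjusted p 0.0181), and both KO libraries were above both WT libraries. It was called under 9 of 10 alternatives and not with the 4 libraries of the comparison alone (limma adjusted p 0.783). Dnajc27, a J protein with a small GTPase domain, stood at 11.1 and 15.1 in WT and 28.4 and 29.2 in KO and was not called (log2 change 1.09, SE 0.30, limma adjusted p 0.153). Hspa8 stood at 2390.1 and 2529.6 against 2411 and 2451 (log2 change -0.02). WT replicate 1 was below WT replicate 2 for all 6 tested CCT genes, Hspd1, Hspe1 and Dnajc9; without WT replicate 2, 7 members were called, beside 11.9% of all genes in that fit.

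In mESC no chaperone gene was called in any of the 7 tests on 75 tested members. All genes were also rarely called: 0.0144% in KO against WT, 0.323% in Q20 against WT, 0.00719% in Q50 and again in Q92 against Q20, 0% in Q111 against Q20, 0% for the slope and 0.0719% for the F test. At an unadjusted limma p under 0.05 the members numbered 2, 5, 6, 4, 4, 2 and 5 of 75 in that order. All genes at that p numbered 553, 1716, 887, 747, 374, 358 and 842 of 13916. These member counts are not read as a result about the members. With edgeR no member was called in the 5 pairs and the slope. Replicate 2 was higher than replicate 1 in all 6 genotypes at 22 of 75 members, and replicate 1 in all 6 at 10 of 75. With the replicate number as a paired term, 4 members were called in Q20 against WT: Hspa12a (limma adjusted p 0.0415), Dnajc6 (0.027), Dnaja3 (0.0463) and Hspb1 (0.0481), all lower in Q20. That fit called 10.6% of all genes, more than the share of members. Fibroblast markers summed to 150.1 and 121 CPM in Q20 mESC and to 17.4 and 21.03 in WT, with a feeder layer in the culture notes; their part was not tested.

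In mESC Hspa8 stood at 3918 and 4418 in WT, 3878 and 4266 in KO, 5048 and 5374 in Q20, 3358 and 4150.4 in Q50, 4083 and 4106 in Q92 and 5154 and 5631 in Q111 CPM. Hsp90aa1 stood at 9601 and 6145 in WT, 7792 and 6861 in KO, 8774 and 6190.5 in Q20, 5386 and 6533 in Q50, 6547 and 6243 in Q92 and 8231 and 6484 in Q111. Hspd1 stood at 1323 and 1908 in WT, 1409.6 and 2655 in KO, 1038 and 1262 in Q20, 1344 and 2163 in Q50, 1094 and 1584 in Q92 and 1028 and 1557 in Q111. For Hspd1 number 2 was above number 1 in each genotype, and for Hspa9 too, whose range was 979.6 to 1444. Hsph1 ranged from 107 to 224, Dnajb1 from 75.3 to 122, Dnajb6 from 66.3 to 163, Dnajb2 from 7.58 to 11.8, Hspe1 from 237 to 722, Hsp90ab1 from 3242 to 5653 and Bag3 from 3.04 to 20.2. The 2 largest changes of each comparison among members averaging 5 CPM or more in the higher group, none of them called, were those of Bag5 (log2 change -0.99, SE 0.33, limma adjusted p 1) and Dnajb4 (0.80) between the libraries labelled KO and WT, Hspa12a in Q20 against WT (-1.75), Bag2 (-1.07) and Hspa12a (0.77) in Q50 against Q20, Bag3 (-1.25) and Dnajb4 (1.13) in Q92 against Q20, and Dnajb4 in Q111 against Q20 (1.14) and in the slope (1.13). Without the second Q20 library the Hspa12a change in Q50 turned to -0.11. Hspa1a also qualified in Q20 against WT, Q111 against Q20 and the slope, through libraries listed at 0. Among the F tests the smallest adjusted p-values, all above 0.05, belonged to Hspa1a (0.471), Dnaja4 (0.578) and Dnajc5g (0.679) by limma.

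Whether a slope differed between the cell types was tested directly over the 16 knock-in libraries. The difference was called for 5 of 71 members, 4 with the higher slope in NPC and 1 with the lower, beside 4.86% of all 12321 genes tested in both. For Dnajc9 the slope was 1.37 in NPC and -0.27 in mESC, where it stood at 92.9 and 93.2 in Q20, 109 and 109.6 in Q50, 85.1 and 86.3 in Q92 and 77.2 and 86.3 in Q111 CPM (difference 1.64, SE 0.21, limma adjusted p 0.000682). Cct3 had a difference of 0.88 (SE 0.18, limma adjusted p 0.0141) and Hspa9 one of 0.83 (SE 0.21, limma adjusted p 0.0365), with mESC slopes of -0.05 and 0.05. Cct8 had one of 0.77, and Dnajb4, a class B J protein, one of -1.61, with neither of its own slopes called. With a single mean value per line, none of the 5 was called. For the other members with a called slope in NPC, a different slope in mESC was not shown.

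**Figure D5:**
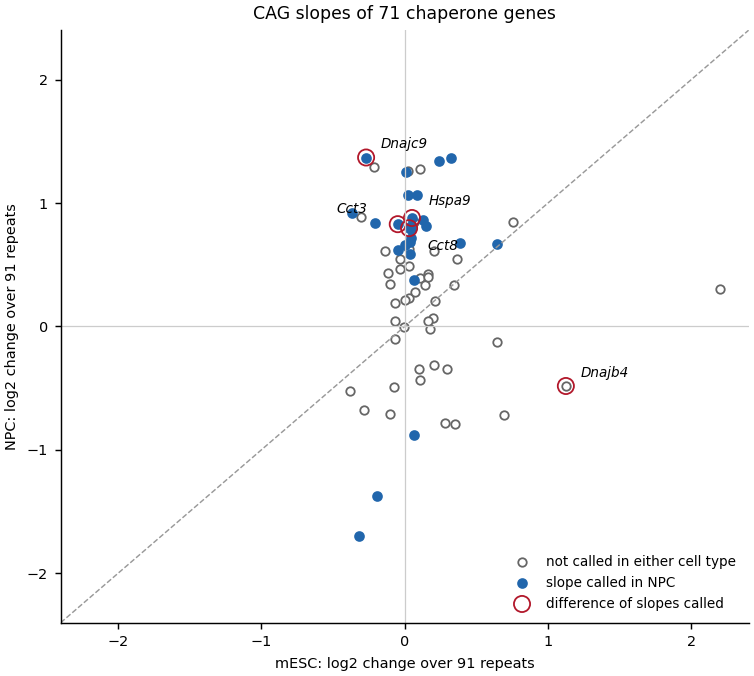
Slopes of 71 chaperone genes on CAG length, as the log2 change of CPM + 1 over 91 repeats, in mESC (horizontal axis) and NPC (vertical axis); filled points have a called slope in NPC, red rings mark a called difference of slopes, and the dashed line marks equal slopes. Most filled points lie above 0.5 in NPC while no mESC slope is called, and the ringed genes are Dnajc9, Cct3, Hspa9, Cct8 and Dnajb4.

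The chaperones' partners are a list of 39 genes outside the naming rule that holds heat shock factors, HSP70 and HSP90 co-chaperones, prefoldin subunits and Tcp1. In NPC, 38 were tested, and the slope was called higher for 8 and lower for 4, beside 22% of all genes, with a median of 0.44. In Q111 against Q20, 6 were called higher and 4 lower, beside 28.3% of all genes. In mESC none was called in the 5 pairs or the slope. Stip1, the adaptor between HSP70 and HSP90, had a called NPC slope (1.04, SE 0.16, limma adjusted p 0.0046), with 243 and 238 in Q20 and 490.5 and 434 in Q111. Stub1, a ubiquitin ligase that marks chaperone clients, had another (1.11, SE 0.21, limma adjusted p 0.00876). Hsf1, the main heat shock factor, was called in Q92 against Q20 (log2 change 0.86, SE 0.21, limma adjusted p 0.0179), with 26.3 and 22.8 in Q20, 40.2 and 50.6 in Q92 and 36.1 and 33.001 in Q111. Hsf2 was not called in the 5 NPC pairs or the slope, and an RNA level does not show whether a heat shock factor is active.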

How the data were processed

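RNA-seq of 24 mouse libraries was used, 2 per genotype and cell type. Per the submitters' processing notes, base calling used CASAVA 1.8, alignment STAR, and the genome was GRCm38.p6; the counter, strand setting, scaling and gene filter are not given in the sources used here. The deposited files hold 1 signal value per gene and library, given as CPM by the authors. All values were whole multiples of 1 step per library (100% within 0.01), which gave the reads counted. Genes with at least 1 CPM in 2 libraries of a table were tested on log2(CPM + 1) with limma 3.58.1 in R 4.3.3, trend on, 1 mean per genotype and cell type or 1 slope over the knock-in lengths, with Benjamini-Hochberg adjustment over all genes tested and a threshold of 0.05. All fold changes are on this scale, which understates changes of low genes. Alternatives were a pseudocount of 0.25, no filter, median-of-ratios scaling, only the libraries compared, a replicate block, edgeR 4.0.16 on the recovered reads, each library left out, WT as the reference, 89 repeats for the third line and 1 mean value per line; slopes without Q20 or Q111 were added after seeing the data. WT as the reference is not counted where a number of alternatives is given. The fits were tested on simulated data.

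Deviations of same-numbered libraries correlated above 0.1 in 15 of 15 genotype pairs of mESC (0.25 to 0.55) and in 3 of 15 of NPC (-0.05 to 0.47), so numbers were taken to pair the mESC libraries only. The members and lists were chosen with earlier results of these data known. Named genes were a fixed set of well-known chaperones; up to 5 called rises and falls per pair, with groups that did not overlap and a mean of 5 CPM or more in the higher one; up to 5 called slopes each way with the smallest p and means moving one way; the 3 smallest adjusted p-values of the F test and of the difference of slopes; the 2 largest changes where fewer than 3 were called; the 5 highest levels per kb; and 6 genes outside the rule for context. Other named genes were chosen after their values were seen. Genes and exons are from GENCODE M21, and promoter windows from RefSeq. The longest transcript is the one with the most exon bases, of any transcript type. Its exon number need not be that of the gene's other transcripts.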

Additional observations from a re-analysis of the deposited data

Results flagged for a closer look

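5 chaperone genes had a repeat-length slope that differed between NPC and mESC in the test of the difference itself, given as the log2 change over 91 repeats in NPC minus that in mESC. They are 5 of 71 tested members, beside 4.86% of all genes, and none was called with 1 mean value per line. Dnajc9 and Cct3 were called under 19 of 20 alternatives, Dnajb4 under 10, and Hspa9 and Cct8 under 8. The difference was 1.64 for Dnajc9 (limma adjusted p 0.000682), 0.88 for Cct3 (0.0141), 0.83 for Hspa9 (0.0365), 0.77 for Cct8 (0.0385) and -1.61 for Dnajb4 (0.0368). For Dnajb4 the slope was 1.13 in mESC and -0.48 in NPC, neither of them called. For Cct8 it was 0.03 in mESC and 0.80 in NPC.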

How the results depend on the processing

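Counts of chaperone genes called depended on which libraries entered the fit. Fits on the 4 libraries compared called 0 in NPC KO against WT, 1 in Q20 against WT, 17 in Q50 and 34 in Q92 against Q20, beside 29.7% and 46.6% of all genes in the last 2. The count of such a fit for Q111 against Q20 is not given here. With edgeR, 6 were called in Q20 against WT. With WT as the reference, 1, 5 and 13 were called in Q50, Q92 and Q111. The NPC slope called 14 without the Q20 line, 16 without the Q111 line and 0 with 1 mean value per line, and the latter also left 0 for the difference of slopes. Leaving out 1 library gave 1 to 7 called in NPC KO against WT, 3 to 14 in Q20 against WT, 3 to 4 in Q50, 6 to 7 in Q92 and 10 to 13 in Q111 against Q20, 11 to 24 for the slope, 18 to 22 for the F test, 2 to 5 for the difference of slopes, and 0 in every mESC test. With a replicate block, which pairs the mESC libraries by number, 4 members were called in mESC Q20 against WT, beside 10.6% of all genes, and no other mESC count changed. In NPC, where the numbers were not taken to pair, the block gave 19 for the slope and 32 for Q111 against Q20. All-gene shares are not given here for the edgeR count, the ranges without 1 library or the NPC block counts. Those counts therefore do not show whether the changes concern the chaperones in particular. Among the 125 called results of members over all comparisons, 29 were called under every alternative counted. WT as the reference was not counted among these alternatives. The change of Hspa12a in mESC Q50 against Q20, not called, ranged from -0.11 to 1.66 over the libraries left out and reversed without the second Q20 library. The cause of these changes was not tested. Median-of-ratios scaling moved the all-gene median by no more than 0.05. The 2 libraries per group limit every test, and low members such as Dnajc22, Hspb1 and Hspb8 rest on values near the filter.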
